A study of Mus musculus with 9 samples.

Results

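Potassium channel genes were followed across dorsal, intermediate and ventral spinal cord of the young mouse. The members are all genes whose symbol in the platform annotation begins with Kcn. They number 84 of the 18193 genes with at least 1 probe set of a single symbol, and they were read by 167 probe sets, of which the one with the highest mean over the 9 arrays stood for each gene. The arrays came from 3 mice of the GAD65-GFP genotype at postnatal day 6, whose cords were each sampled in dorsal, intermediate and ventral pieces (n = 3 per region). All groups share that genotype, a reporter in which the regulatory sequence of the GABA-synthesising enzyme GAD65 drives green fluorescent protein. The labels mention no sorting, so the values are those of whole tissue, in which fewer cells of a type and less RNA per cell cannot be told apart. Nothing in the labels says how the borders of the pieces were set.

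Potassium channels let potassium leave the cell and so set the resting potential, the shape of the action potential and the rate of repeated firing. Voltage-gated members open on depolarisation, inward rectifiers and leak channels hold the membrane near rest, and other members answer to intracellular calcium or sodium. In the spinal cord they shape the firing of dorsal horn sensory neurons, ventral interneurons and motor neurons, and in astrocytes they clear potassium released by active neurons.

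Values were taken as log2 expression, a reading that rests on their range of 2.15 to 16.3 because the scale is not stated. Each array held 36.0% to 36.3% of its probe sets at the floor, which is the lowest value in the data with a margin of 0.01, and array medians lay between 3.66 and 3.752. Marker genes followed the region labels in part. All 8 dorsal horn neuron markers were higher in dorsal than in ventral cord, and their summed linear signal was 14125 to 16863 on dorsal arrays, 3953 to 4969 on intermediate arrays and 981 to 1061 on ventral arrays. The defining motor neuron genes Chat, Slc18a3 and Slc5a7 were at the floor on all 9 arrays, while the motor and sensory neuron filament gene Prph averaged 2.15 in dorsal, 2.26 in intermediate and 9.41 in ventral cord. Schwann cell and meningeal genes were present on dorsal and ventral arrays, at sums of 4529 to 19047 for Schwann cell genes on dorsal arrays, 353 to 700 on intermediate arrays and 6523 to 9665 on ventral arrays, and their part in the results below was not tested.

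Of the 84 members, 18 were at the floor on all 9 arrays. Genes were tested where their mean over the arrays was at or above the 30th percentile of probe set means, which kept 68 members, and 66 members were above the floor on some array. The 16 untested members were Kcne1, Kcne2, Kcng2, Kcnh3, Kcnh7, Kcnj2, Kcnj13, Kcnj15, Kcnk4, Kcnk12, Kcnk15, Kcnk16, Kcnmb1, Kcnmb4os1, Kcnn3 and Kcnv2. Differences were tested with limma over all 13959 genes kept, with the animal as a block, and a difference was called at a Benjamini-Hochberg adjusted p under 0.05.

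More channel genes were called higher than lower both in dorsal and in intermediate cord against ventral cord, and between dorsal and intermediate cord the calls split evenly. Against ventral cord, 23 of the 68 tested members were higher in dorsal cord (33.8%, against 24.5% of all genes tested) and 10 were lower (14.7%, against 28.2%). Against intermediate cord, 12 members were higher in dorsal cord (17.6%, against 14.2% of all genes) and 12 were lower (17.6%, against 15.9%). Between intermediate and ventral cord, 27 members were higher in intermediate cord (39.7%, against 23.4%) and 6 were lower (8.82%, against 24.9%). The share called in either direction lay near that of all genes in each comparison: 48.5% against 52.8% for dorsal minus ventral, 35.3% against 30.1% for dorsal minus intermediate and 48.5% against 48.2% for intermediate minus ventral. The median difference of the tested members was 0.02, 0.00 and 0.11 in these comparisons, against 0.00 in each over all genes. Over all 3 regions an F test of the same model called 37 members (54.4%, against 58.0% of all genes).

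Called differences of at least 2-fold took a larger share of the members than of all genes, a comparison of shares that was not tested. Called differences of at least 2-fold numbered 20 in dorsal minus ventral (29.4%, against 12.9% of all genes), 17 of them higher in dorsal cord. They numbered 6 in dorsal minus intermediate (8.82%, against 3.85%) and 14 in intermediate minus ventral (20.6%, against 9.51%). When animals 1, 2 and 3 were left out in turn, 23 of the 33 calls in dorsal minus ventral and 20 of the 33 in intermediate minus ventral held every time. In dorsal minus intermediate 6 of the 24 did, namely those of Kcna2, Kcnc2, Kcnip2, Kcnj3, Kcnj10 and Kcnj16.

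Pan-neuronal and astrocyte markers also differed from ventral cord. All 6 pan-neuronal markers were higher in dorsal than in ventral cord, with a median difference of 0.73, and in intermediate than in ventral cord, with 0.95. They summed to 51344 to 57175 on dorsal arrays, 52128 to 56253 on intermediate arrays and 29140 to 29847 on ventral arrays. All 8 astrocyte markers were lower in dorsal than in ventral cord, with a median difference of -0.91, and in intermediate than in ventral cord, with -0.54. They summed to 70612 to 79087, 85661 to 89517 and 124609 to 126996 on dorsal, intermediate and ventral arrays. Microglia markers went another way: 1 of 8 was lower in dorsal than in ventral cord. All 8 were higher in dorsal than in intermediate cord and lower in intermediate than in ventral cord. The part of these cells in the channel results was not tested.

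**Figure D1:**
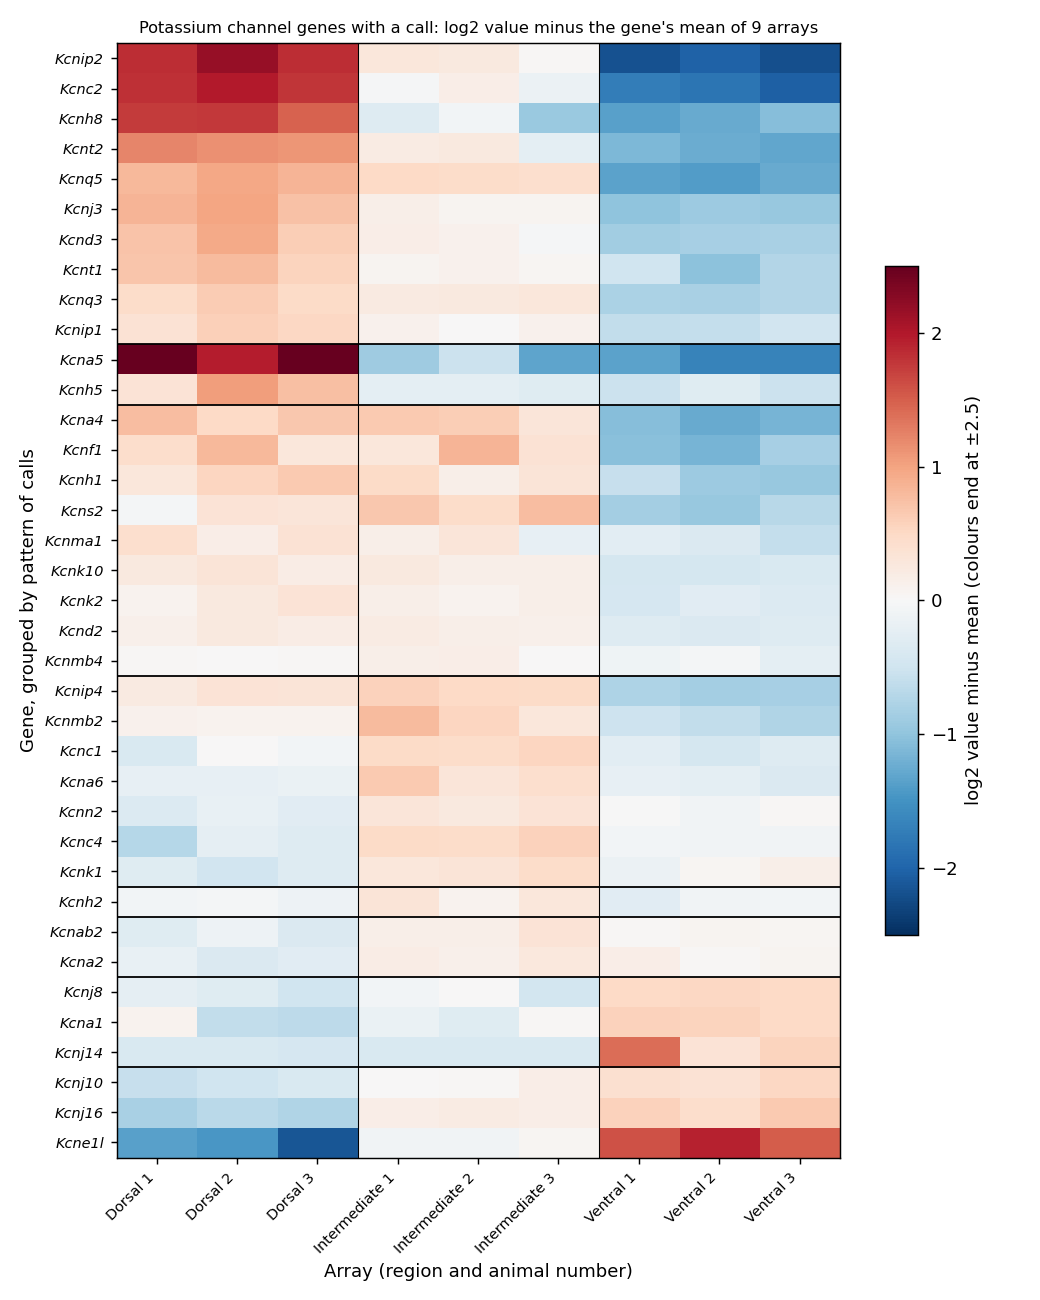
The 37 Kcn genes with a call, 1 per row and grouped by pattern of calls, on the 9 arrays in the order dorsal, intermediate, ventral. Colour gives the log2 value on an array minus the gene's mean over the 9 arrays, and most rows are highest on dorsal or intermediate arrays while the last block, Kcne1l, Kcnj10 and Kcnj16, is highest on ventral arrays.

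By their calls the members fell into a few patterns. The most populated held 10 genes that stepped down from dorsal through intermediate to ventral cord (14.7%, against 5.75% of all genes): Kcnc2, Kcnd3, Kcnh8, Kcnip1, Kcnip2, Kcnj3, Kcnq3, Kcnq5, Kcnt1 and Kcnt2. Of these 10, 3 kept all 3 calls without animal 1, namely Kcnc2, Kcnip2 and Kcnj3, 8 did without animal 2 and 5 without animal 3. With a single array left out, 7 to 9 did. A further 9 were higher in dorsal and intermediate than in ventral cord with no call between dorsal and intermediate cord: Kcna4, Kcnd2, Kcnf1, Kcnh1, Kcnk2, Kcnk10, Kcnma1, Kcnmb4 and Kcns2 (9.94% of all genes). Kcna5 and Kcnh5 were higher in dorsal cord than in the other regions (3.68% of all genes), and Kcnh2 was called in intermediate minus ventral alone (9.68% of all genes had a single comparison called). Intermediate cord was highest for 7 members (10.3%, against 6.25% of all genes) and lowest for 0 (4.20% of all genes; limma, and 0 at an unadjusted p under 0.05 in both comparisons). The count of 7 fell to 3, 2 and 0 without animal 1, 2 and 3. It fell to 3 or 4 without any 1 intermediate array, and to 4 and 3 without ventral arrays 2 and 3. The counts take any member with the pattern in that setting, so they can include genes outside the 7. With any 1 animal or array left out, the 7 genes did not all keep both calls. Markers of inhibitory neurons also differed between these regions: of the 4 measured, Gad2, Slc32a1 and Slc6a5 were lower in dorsal than in intermediate cord, Gad1 was higher, and all 4 were higher in intermediate than in ventral cord. Their summed signal was 19152 to 20859 on dorsal, 15804 to 16122 on intermediate and 4036 to 4651 on ventral arrays, and their part in the result was not tested. Opposite steps, up from dorsal to ventral cord, were seen for Kcne1l, Kcnj10 and Kcnj16 (5.12% of all genes). Kcna1, Kcnj8 and Kcnj14 were higher in ventral than in the other regions (13.7% of all genes), and Kcna2 and Kcnab2 were lower in dorsal cord (3.82% of all genes). No comparison was called for 31 members (37.8% of all genes had no call). Of these 31, 28 repeated the same value on at least 3 arrays, 22 on at least 6 and 5 on all 9. Whether a value repeated above the floor stands for detected RNA was not tested.

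The promoters of a gene from each opposite stepwise pattern are printed because both hold the E-box CAGCTG, a motif bound by basic helix-loop-helix factors of neural progenitors and other cells. Each is the 250 bases upstream of the annotated start, from RefSeq on GRCm38.p6, in lower case with the E-box in capitals, read 5′ to 3′ on the gene's strand. Kcnj3 lies on the plus strand at chr2:55435720-55435969, and Kcne1l on the minus strand at chrX:142306199-142306448.
Kcnj3: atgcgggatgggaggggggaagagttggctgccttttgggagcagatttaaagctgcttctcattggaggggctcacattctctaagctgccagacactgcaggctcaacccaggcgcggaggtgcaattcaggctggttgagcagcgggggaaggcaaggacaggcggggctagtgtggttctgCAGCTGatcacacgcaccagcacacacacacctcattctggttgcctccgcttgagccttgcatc
Kcne1l: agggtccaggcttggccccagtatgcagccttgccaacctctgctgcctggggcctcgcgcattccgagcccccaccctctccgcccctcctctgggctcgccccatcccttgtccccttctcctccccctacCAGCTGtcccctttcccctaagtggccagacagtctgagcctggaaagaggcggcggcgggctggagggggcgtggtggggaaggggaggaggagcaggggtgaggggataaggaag
G and C made up 58.4% of the Kcnj3 window and 68% of the Kcne1l window, against a median of 52.4% over 32851 windows of that length. The E-box, which reads the same on both strands, was in a window of 17 of the 64 members with any (26.6%) and of 3979 of 27025 genes with any (14.7%). Among genes stepping down from dorsal to ventral cord it was found for 4 of the 8 with a window (Kcnc2, Kcnd3, Kcnip1 and Kcnj3). Among those stepping up it was found for 2 of 3 (Kcne1l and Kcnj16), and among those highest in intermediate cord for 0 of 6. Members with no call had it in 6 of 22, and those higher in dorsal and intermediate than in ventral cord in 1 of 8. Those lower in dorsal cord had it in 1 of 2, with 0 in the remaining patterns. The members had 89 windows for 64 genes, against 32851 for 27025 genes, and more windows per gene give more room for a match. The motifs TGACGTCA, TAATTA and TATAAA were looked for too. A match of letters is a description of the window and shows no binding.

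Among the voltage-gated pore-forming genes, 10 of 20 tested were higher and 2 lower in dorsal than in ventral cord (24.5% and 28.2% of all genes). The largest differences were in Kcna5, Kcnc2 and Kcnh8. Kcnc2, which encodes a Kv3 channel that opens at high voltage and allows fast firing, read 10.59, 10.74 and 10.55 on the dorsal arrays of animals 1, 2 and 3, 8.74, 8.94 and 8.62 on the intermediate arrays, and 7.04, 6.95 and 6.72 on the ventral arrays. The regions formed separate levels in all 3 animals. Its dorsal minus ventral difference of 3.73 ± 0.07 (SE) was a fold of 13.2 (adjusted p = 2.47e-05, limma), and the steps from dorsal to intermediate and from intermediate to ventral were nearly equal, at differences of 1.86 ± 0.07 and 1.87 ± 0.07.

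Kcnc1 and Kcnc4, the other Kv3 genes measured, did not follow Kcnc2 and peaked in intermediate cord. Kcnc1, typical of fast-spiking neurons, read 9.49, 9.88 and 9.80 on dorsal arrays, 10.36, 10.32 and 10.42 on intermediate arrays, and 9.61, 9.43 and 9.55 on ventral arrays. Kcnc4, whose channels inactivate rapidly, read 8.41, 8.89 and 8.79 on dorsal arrays, 9.61, 9.57 and 9.70 on intermediate arrays, and 9.05, 9.04 and 9.02 on ventral arrays. For both genes every intermediate array lay above every other array. Kcnc1 differed by -0.64 ± 0.11 between dorsal and intermediate cord (adjusted p = 0.015, limma) and by 0.84 ± 0.11 between intermediate and ventral cord (adjusted p = 0.00358). Kcnc4 differed by -0.93 ± 0.12 (adjusted p = 0.00544) and 0.59 ± 0.12 (adjusted p = 0.0121) in the same comparisons.

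These peaks were not stable to every choice. Another, dimmer probe set of Kcnc1 gave 0.78 for dorsal minus intermediate, opposite in sign, while a further one gave -0.25. The dorsal minus intermediate call of Kcnc1 was lost without animal 2 or 3, dorsal array 3 or intermediate arrays 1, 2 or 3 (adjusted p 0.0502 to 0.158), and its intermediate minus ventral call without animal 3 (adjusted p = 0.0733). For Kcnc4 the calls were lost without animal 3 (adjusted p = 0.0943 for dorsal minus intermediate and 0.139 for intermediate minus ventral), and the intermediate minus ventral call also without animal 2, intermediate arrays 1 or 3, or ventral arrays 2 or 3 (0.0549 to 0.0589).

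The Kv4 genes encode the somatodendritic A-type current, which delays firing and restrains dorsal horn neurons. Kcnd2 read 12.80, 12.92 and 12.86 on dorsal arrays, 12.88, 12.83 and 12.80 on intermediate arrays, and 12.36, 12.32 and 12.35 on ventral arrays. Dorsal and intermediate arrays overlapped, and all of them lay above the ventral arrays, by 0.52 ± 0.04 for dorsal (adjusted p = 0.000489, limma) and by 0.49 ± 0.04 for intermediate cord (adjusted p = 0.000773). Kcnd3 read 10.45, 10.68 and 10.35 on dorsal arrays, 9.90, 9.85 and 9.72 on intermediate arrays, and 8.88, 8.90 and 8.93 on ventral arrays. Its regions were separate, with a dorsal minus ventral difference of 1.59 ± 0.08 (fold of 3, adjusted p = 0.000148), and its dorsal minus intermediate call of 0.67 ± 0.08 was lost without animal 1 or animal 3 (adjusted p = 0.062 and 0.059). Kcnd1 averaged 5.79, 5.76 and 5.76 in dorsal, intermediate and ventral cord and was not called. Its intermediate and ventral means were identical, and whether that level stands for detected RNA was not tested.

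The Kv4 channels are assembled with cytoplasmic calcium-binding KChIP proteins, which raise their surface level and slow their inactivation. Kcnip2 had the largest dorsal minus ventral difference of all members. It read 9.13, 9.46 and 9.13 on dorsal arrays, 7.57, 7.53 and 7.32 on intermediate arrays, and 5.12, 5.27 and 5.09 on ventral arrays. The regions were far apart beside the spread within each, and the difference of 4.08 ± 0.07 was a fold of 16.9 (adjusted p = 2.47e-05, limma). Kcnip2 was also 3.4-fold higher in dorsal than in intermediate cord (1.77 ± 0.07, adjusted p = 0.000413) and 4.97-fold higher in intermediate than in ventral cord (2.31 ± 0.07, adjusted p = 0.000142).

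Kcnip1 stepped the same way with smaller differences. It read 11.08, 11.31 and 11.23 on dorsal arrays, 10.81, 10.72 and 10.81 on intermediate arrays, and 10.09, 10.11 and 10.24 on ventral arrays, and the dorsal minus ventral difference was 1.06 ± 0.07 (adjusted p = 0.000258, limma). Another probe set of Kcnip1, dimmer on average, gave 2.49 for the same difference. Kcnip4 peaked in intermediate cord, at 9.63, 9.74 and 9.72 on dorsal arrays, 9.97, 9.90 and 9.87 on intermediate arrays, and 8.62, 8.55 and 8.57 on ventral arrays. Its 1.12 ± 0.05 for dorsal minus ventral (adjusted p = 9.69e-05) and 1.33 ± 0.05 for intermediate minus ventral (adjusted p = 0.000168) were far larger than its -0.22 ± 0.05 for dorsal minus intermediate (adjusted p = 0.0283).

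Kcnip3, which also acts as the transcriptional repressor DREAM of the prodynorphin gene, read 6.31, 6.61 and 6.97 on dorsal arrays, 6.97, 7.02 and 7.38 on intermediate arrays, and 6.97, 7.29 and 6.98 on ventral arrays. Its dorsal minus intermediate difference of -0.49 ± 0.16 had an adjusted p of 0.0853 and was the largest in that comparison without a call. The dorsal minus intermediate call of Kcnip4 was lost without animal 1, 2 or 3 and without each array except dorsal arrays 1 and 2 (adjusted p 0.0527 to 0.147). That of Kcnip1 (0.42 ± 0.07) was lost without animal 1, 2 or 3 or intermediate array 3 (0.0529 to 0.125).

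**Figure D2:**
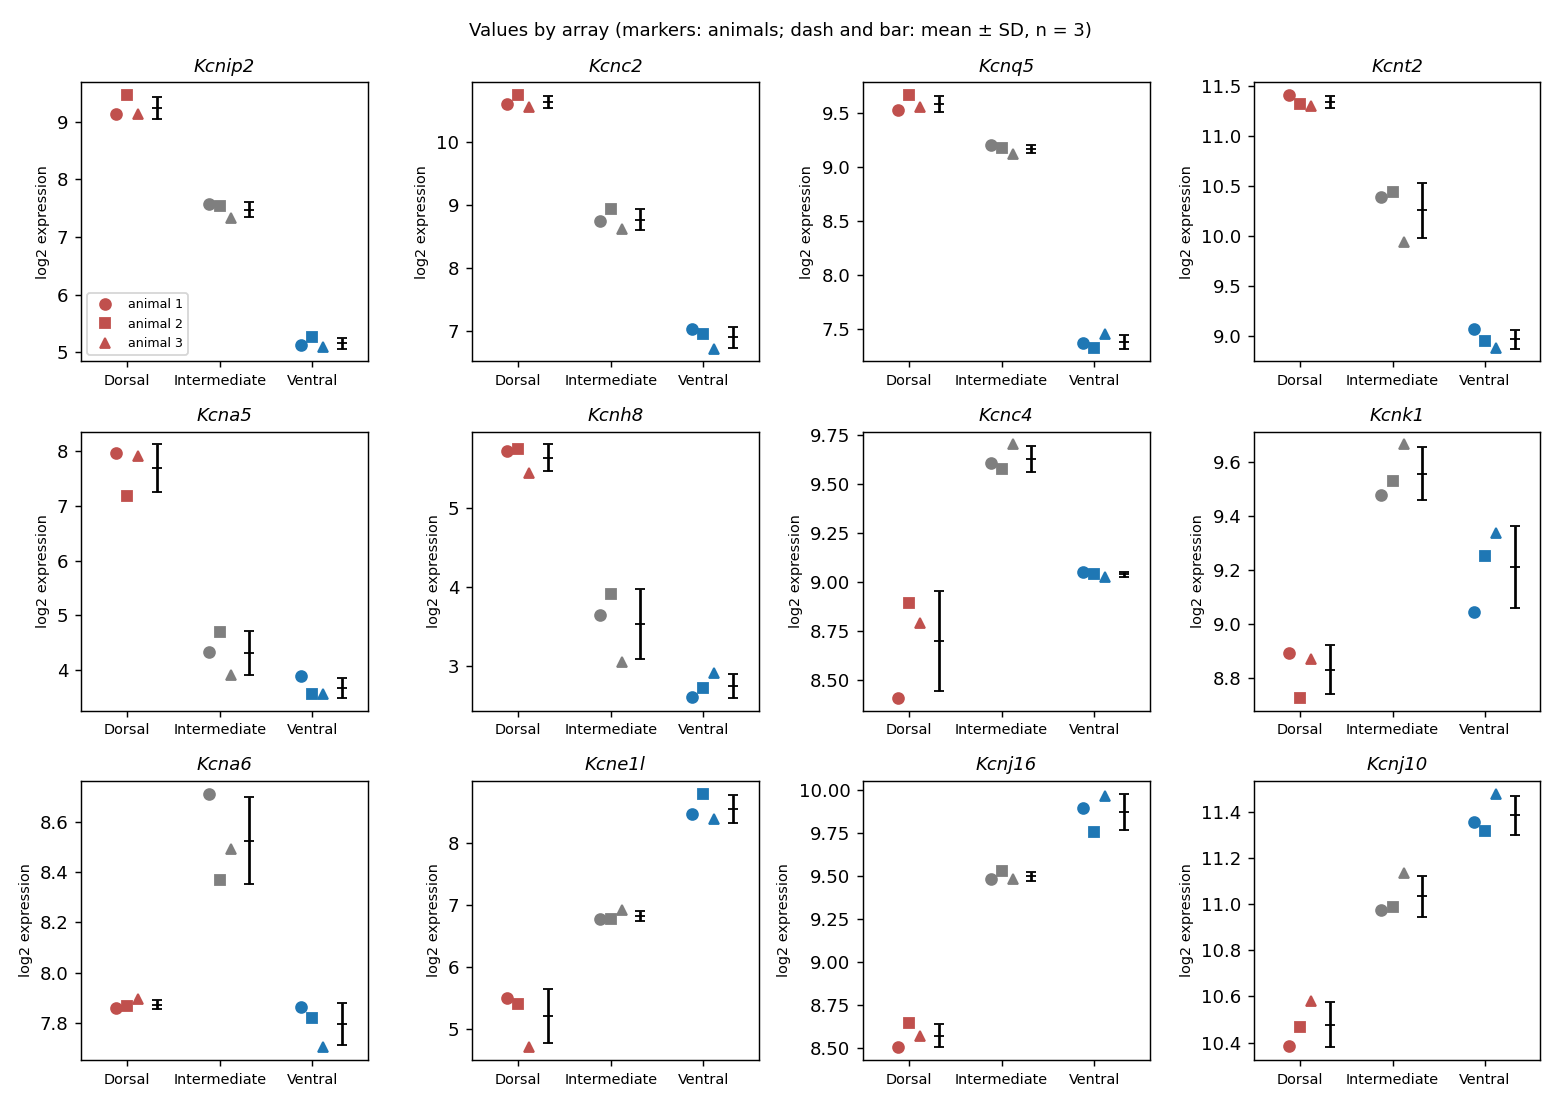
Log2 expression of 12 members on each array, with a vertical range of its own in each panel, regions from left to right as dorsal, intermediate and ventral, marker shapes for the animals, and a dash with a bar for the mean ± SD (n = 3). Kcnip2 and Kcnc2 step down in every animal, Kcnc4, Kcnk1 and Kcna6 are highest on intermediate arrays, and Kcne1l, Kcnj16 and Kcnj10 step up toward ventral arrays.

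The Kv1 genes, whose products form low-threshold axonal and somatic channels, went in several directions. Kcna5, which encodes a delayed rectifier also made by glia and smooth muscle, read 7.98, 7.19 and 7.92 on dorsal arrays, 4.33, 4.69 and 3.90 on intermediate arrays, and 3.89, 3.56 and 3.56 on ventral arrays. Dorsal arrays stood far above the rest. Its dorsal minus ventral difference was 4.02 ± 0.30, a fold of 16.2 (adjusted p = 0.000409, limma), and its dorsal minus intermediate difference was 3.38 ± 0.30, a fold of 10.4 (adjusted p = 0.00207). The dorsal minus intermediate call was lost without animal 1 (adjusted p = 0.0572), and the intermediate minus ventral difference of 0.64 ± 0.30 was not called (adjusted p = 0.151). The ventral readings of Kcna5 lay near the medians of the ventral arrays, 3.69 to 3.70. Whether that level stands for detected RNA was not tested, and the fold against ventral cord may depend on it.

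Kcna4, the inactivating A-type Kv1 gene, read 8.84, 8.57 and 8.75 on dorsal arrays, 8.72, 8.69 and 8.37 on intermediate arrays, and 7.01, 6.82 and 6.91 on ventral arrays. Dorsal and intermediate arrays overlapped and exceeded the ventral arrays by 1.80 ± 0.10 (fold of 3.49, adjusted p = 0.000182, limma) and 1.68 ± 0.10 (fold of 3.21, adjusted p = 0.000368).

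Kcna1 and Kcna2, whose subunits cluster beside nodes of Ranvier, were lower in dorsal than in ventral cord. Kcna1 read 9.70, 9.00 and 8.97 on dorsal arrays, 9.45, 9.31 and 9.65 on intermediate arrays, and 10.19, 10.16 and 10.11 on ventral arrays. The ventral arrays were above all others, and the dorsal minus ventral difference was -0.93 ± 0.20 (adjusted p = 0.014, limma). A pair of other Kcna1 probe sets gave -0.83 and -0.66. Kcna2 read 10.56, 10.37 and 10.45 on dorsal arrays, 10.92, 10.86 and 11.00 on intermediate arrays, and 10.90, 10.76 and 10.80 on ventral arrays, with differences of -0.36 ± 0.04 for dorsal minus ventral (adjusted p = 0.00168) and -0.47 ± 0.04 for dorsal minus intermediate (adjusted p = 0.00213).

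The Kcna1 call in dorsal minus ventral was lost without animal 2 or 3, dorsal arrays 2 or 3, or ventral arrays 2 or 3 (adjusted p 0.0501 to 0.148). Its intermediate minus ventral difference, -0.68 ± 0.20, was lost without animal 1, 2 or 3, dorsal array 2, intermediate arrays 1 or 2, or ventral arrays 1, 2 or 3 (0.0603 to 0.25). Kcnab2, the main neuronal Kv1 beta subunit, averaged 8.20 ± 0.13 in dorsal, 8.68 ± 0.12 in intermediate and 8.52 ± 0.02 in ventral cord (SD, n = 3 each), and was lower in dorsal cord, with -0.32 ± 0.09 against ventral (adjusted p = 0.0336, limma) and -0.48 ± 0.09 against intermediate cord (adjusted p = 0.0163). The call against ventral cord was lost without animal 1, 2 or 3, dorsal arrays 1 or 3, intermediate array 1 or ventral arrays 1, 2 or 3 (0.0575 to 0.215), and that against intermediate cord without animal 1 or 3, dorsal array 1 or intermediate array 1 (0.0612 to 0.15). Kcnab1 averaged 8.87, 8.75 and 8.95 in dorsal, intermediate and ventral cord, and neither it nor Kcnab3 was called.

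Kcna6, another Kv1 gene, peaked in intermediate cord at 7.86, 7.87 and 7.90 on dorsal arrays, 8.71, 8.37 and 8.49 on intermediate arrays, and 7.87, 7.82 and 7.71 on ventral arrays. Every intermediate array lay above all others, with differences of -0.65 ± 0.08 for dorsal minus intermediate (adjusted p = 0.00531, limma) and 0.73 ± 0.08 for intermediate minus ventral (adjusted p = 0.0018). A much dimmer Kcna6 probe set gave -0.46 for intermediate minus ventral, and the dorsal minus intermediate call was lost without animal 1 or 3 (adjusted p = 0.0532 and 0.0833). Kcna3 and Kcna7, of which the channel of Kcna3 is best known in lymphocytes and microglia, were not called, with differences of at most 0.28 in size (smallest adjusted p = 0.218).

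None of the 4 tested ether-a-go-go genes, whose channels shape the threshold and afterpotentials, was without a call, while 37.8% of all genes had no call. Kcnh8 of the Elk branch read 5.73, 5.74 and 5.44 on dorsal arrays, 3.65, 3.91 and 3.05 on intermediate arrays, and 2.61, 2.72 and 2.91 on ventral arrays. The dorsal arrays stood clear of the rest and the dorsal minus ventral difference was 2.89 ± 0.22, a fold of 7.42 (adjusted p = 0.000424, limma). The ventral arrays lay little above the floor of 2.15, so the sizes of the differences from ventral cord, and the fold, may depend on the floor. The dorsal minus intermediate call (2.10 ± 0.22) was lost without animal 1 (adjusted p = 0.0619). The intermediate minus ventral call (0.79 ± 0.22) was lost without animal 1 or 2 and without each array except intermediate 3 and ventral 3 (0.0677 to 0.251).

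Kcnh2, the Erg gene of the rapid delayed rectifier, averaged 6.90 ± 0.04 in dorsal, 7.22 ± 0.12 in intermediate and 6.83 ± 0.12 in ventral cord (SD, n = 3 each). Only its intermediate minus ventral difference of 0.38 ± 0.09 was called (adjusted p = 0.0215, limma), and that was lost without animal 1, 2 or 3, intermediate arrays 1 or 3, or ventral array 3 (adjusted p 0.0535 to 0.132). Kcnh1 and Kcnh5, the Eag genes, are given as genes singled out after their values were seen. Kcnh1 averaged 5.16, 4.99 and 3.86 in dorsal, intermediate and ventral cord, higher in dorsal than ventral cord by 1.30 ± 0.16 (adjusted p = 0.00189), and Kcnh5 averaged 3.45, 2.47 and 2.28, higher by 1.17 ± 0.14 (adjusted p = 0.00185). The Kcnh5 means in intermediate and ventral cord were near the floor of 2.15, so the sizes of its differences may depend on the floor. The Kcnh1 intermediate minus ventral call (1.12 ± 0.16) was lost without animal 2 or 3 (0.0531 and 0.0561), the Kcnh5 call against ventral cord without animal 3 (0.0516), and that against intermediate cord (0.98 ± 0.14) without animal 2 or 3 (0.0756 and 0.122).

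The M-current genes Kcnq3 and Kcnq5, whose slow current is closed by muscarinic receptors and limits repeated firing, stepped down from dorsal to ventral cord. Kcnq5 read 9.53, 9.67 and 9.56 on dorsal arrays, 9.20, 9.18 and 9.13 on intermediate arrays, and 7.37, 7.33 and 7.45 on ventral arrays. Its larger step lay between intermediate and ventral cord, at 1.79 ± 0.06 (fold of 3.46, adjusted p = 0.000136, limma), against 0.42 ± 0.06 between dorsal and intermediate cord. Kcnq3 read 11.14, 11.32 and 11.17 on dorsal arrays, 10.92, 10.92 and 10.97 on intermediate arrays, and 9.90, 9.87 and 9.95 on ventral arrays, with 1.03 ± 0.05 for intermediate minus ventral (adjusted p = 0.000262) and 0.27 ± 0.05 for dorsal minus intermediate. The dorsal minus intermediate calls were lost for Kcnq5 without animal 1 or 3 (adjusted p = 0.0687 and 0.0709) and for Kcnq3 without animal 1 or 3 or intermediate arrays 1, 2 or 3 (0.064 to 0.128). Kcnq1 was at 2.59 on all 9 arrays.

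Among electrically silent subunits, which form no channel alone but modify Kv2 channels, Kcnf1 and Kcns2 were higher in dorsal and intermediate than in ventral cord. Kcns2 read 8.68, 9.08 and 9.03 on dorsal arrays, 9.40, 9.18 and 9.49 on intermediate arrays, and 7.88, 7.78 and 8.03 on ventral arrays. Kcns2 had a dorsal minus ventral difference of 1.03 ± 0.12 (adjusted p = 0.00198, limma) and the intermediate minus ventral difference 1.46 ± 0.12 (adjusted p = 0.000852). Kcnf1 read 5.26, 5.63 and 5.11 on dorsal arrays, 5.11, 5.67 and 5.19 on intermediate arrays, and 3.78, 3.65 and 3.98 on ventral arrays, with differences of 1.53 ± 0.19 against ventral (adjusted p = 0.00224) and 1.52 ± 0.19 for intermediate minus ventral cord (adjusted p = 0.00274). The Kcns2 dorsal minus ventral call was lost without animal 3 (adjusted p = 0.0512). Kcng1, Kcng4, Kcns1, Kcns3 and Kcnv1 lay between 2.15 and 3.15 on every array and were not called.

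Among the inward rectifiers, Kcnj3, which encodes the GIRK subunit opened by opioid and GABA-B receptors through G proteins, stepped down from dorsal to ventral cord. It read 9.98, 10.11 and 9.87 on dorsal arrays, 9.29, 9.20 and 9.20 on intermediate arrays, and 8.13, 8.22 and 8.19 on ventral arrays. The dorsal minus ventral difference was 1.80 ± 0.06, a fold of 3.49 (adjusted p = 6.03e-05, limma), with 0.76 ± 0.06 between dorsal and intermediate cord (adjusted p = 0.00165) and 1.05 ± 0.06 between intermediate and ventral cord (adjusted p = 0.000362). Another Kcnj3 probe set gave 2.21 for dorsal minus ventral. Of the GIRK partners, Kcnj6 averaged 3.41, 3.29 and 3.18 in dorsal, intermediate and ventral cord and Kcnj9 3.29 in each, and neither was called. The Kcnj9 means in intermediate and ventral cord were identical, and whether that level stands for detected RNA was not tested.

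Kcnj10 and Kcnj16, the Kir4.1 and Kir5.1 subunits through which astrocytes and oligodendrocytes take up potassium, were higher toward ventral cord. Kcnj10 read 10.38, 10.47 and 10.58 on dorsal arrays, 10.97, 10.99 and 11.14 on intermediate arrays, and 11.36, 11.32 and 11.48 on ventral arrays. The regions did not overlap, and the differences were -0.91 ± 0.02 for dorsal minus ventral (adjusted p = 4.2e-05, limma), -0.56 ± 0.02 for dorsal minus intermediate and -0.35 ± 0.02 for intermediate minus ventral. Kcnj16 read 8.51, 8.64 and 8.57 on dorsal arrays, 9.48, 9.53 and 9.48 on intermediate arrays, and 9.90, 9.76 and 9.97 on ventral arrays. Its dorsal minus ventral difference of -1.30 ± 0.07 (adjusted p = 0.000146) was given as -1.30 by another probe set too, while its intermediate minus ventral call (-0.37 ± 0.07) was lost without animal 1 or 3 (adjusted p = 0.097 and 0.101).

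All 8 astrocyte markers described above were, like these genes, lower in dorsal and in intermediate than in ventral cord. In dorsal minus intermediate 5 of the 8 were lower and 1, Gfap, was higher (1.63). Of 8 oligodendrocyte lineage markers, 7 were also lower in dorsal than in ventral cord, and 3 were lower in dorsal than in intermediate cord. These oligodendrocyte lineage markers summed to 91902 to 96614 on dorsal arrays, 90556 to 101288 on intermediate arrays and 125852 to 130661 on ventral arrays. Kcnj8, the Kir6.1 pore of ATP-sensitive channels in pericytes and smooth muscle, averaged 6.20 ± 0.15 in dorsal, 6.37 ± 0.25 in intermediate and 7.04 ± 0.02 in ventral cord (SD, n = 3 each). It was lower in dorsal than in ventral cord, at a difference of -0.84 ± 0.09 (adjusted p = 0.00138, limma), and lower in intermediate than in ventral cord, at -0.67 ± 0.09 (adjusted p = 0.00357). Of 6 mural markers, 4 were lower in dorsal than in ventral cord, with sums of 5493 to 6922 on dorsal, 7175 to 7979 on intermediate and 11497 to 12411 on ventral arrays, and Anpep was at the floor on all 9. The part of these cell types in the Kcnj10, Kcnj16 and Kcnj8 differences was not tested.

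Kcnj14, whose Kir2.4 channel was described in cranial motor neurons of the rat, read 2.19, 2.18 and 2.15 on dorsal arrays, 2.19, 2.19 and 2.19 on intermediate arrays, and 3.96, 2.91 and 3.12 on ventral arrays. The dorsal and intermediate arrays were near the floor of 2.15, and only the ventral arrays stood clear of it. Kcnj14 had a dorsal minus ventral difference of -1.16 ± 0.24 (adjusted p = 0.0131, limma) and the intermediate minus ventral difference -1.14 ± 0.24 (adjusted p = 0.015). With the dorsal and intermediate arrays this close to the floor, the sizes of both differences depend on the floor and no fold is given. The dorsal minus ventral call was lost without animal 2 or 3 or dorsal array 1 (adjusted p 0.0524 to 0.109) and the intermediate minus ventral call without animal 2 or 3 or intermediate arrays 1 or 3 (0.0517 to 0.118). The remaining 5 tested inward rectifiers, Kcnj1, Kcnj4, Kcnj5, Kcnj11 and Kcnj12, were not called, and of these Kcnj11 of ATP-sensitive channels averaged 8.89, 8.92 and 8.97 in dorsal, intermediate and ventral cord.

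The single-span subunit Kcne1l, whose family modifies voltage-gated channels, was the member with the largest difference toward ventral cord. It read 5.50, 5.41 and 4.71 on dorsal arrays, 6.78, 6.78 and 6.91 on intermediate arrays, and 8.46, 8.79 and 8.38 on ventral arrays. The regions were apart in every animal. Dorsal cord was lower than ventral cord by a fold of 10.1, a difference of -3.34 ± 0.21 (adjusted p = 0.000255, limma), that of dorsal minus intermediate -1.62 ± 0.21 (adjusted p = 0.00599) and that of intermediate minus ventral -1.72 ± 0.21 (adjusted p = 0.00245). The dorsal minus intermediate call was lost without animal 1 or 2 (adjusted p = 0.0582 and 0.0643). The remaining tested Kcne genes, Kcne3 and Kcne4, were not called.

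Leak channels were called in 3 of 8 tested members. The other 5 had no call in any comparison, beside 37.8% of all genes with no call. Kcnk2, the mechanically and lipid gated TREK channel, read 9.24, 9.38 and 9.48 on dorsal arrays, 9.29, 9.24 and 9.29 on intermediate arrays, and 8.72, 8.87 and 8.79 on ventral arrays. Dorsal and intermediate arrays overlapped and both exceeded the ventral arrays, by 0.58 ± 0.06 (adjusted p = 0.00111, limma) and 0.48 ± 0.06 (adjusted p = 0.0025). Its close relative Kcnk10, singled out after its values were seen, averaged 6.54 ± 0.07, 6.46 ± 0.06 and 5.87 ± 0.03 in dorsal, intermediate and ventral cord (SD, n = 3 each), with a dorsal minus ventral difference of 0.67 ± 0.05 (adjusted p = 0.000395).

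Kcnk1, a weakly rectifying TWIK channel, peaked in intermediate cord. It read 8.90, 8.73 and 8.87 on dorsal arrays, 9.48, 9.53 and 9.67 on intermediate arrays, and 9.05, 9.25 and 9.34 on ventral arrays, with differences of -0.38 ± 0.08 for dorsal minus ventral, -0.73 ± 0.08 for dorsal minus intermediate and 0.35 ± 0.08 for intermediate minus ventral (adjusted p = 0.012, 0.0034 and 0.0181, limma). All 3 calls were lost without animal 2 or 3, and the dorsal minus ventral and intermediate minus ventral calls also without single arrays, namely dorsal 3, ventral 2 and ventral 3 for dorsal minus ventral, and the 3 intermediate arrays and ventral 3 for intermediate minus ventral (adjusted p 0.0503 to 0.138). Kcnk3 averaged 5.71, 5.72 and 5.75 in dorsal, intermediate and ventral cord, Kcnk13, which microglia use, 5.94, 5.63 and 6.08, and neither was called. Kcnk5, Kcnk6 and Kcnk7 were not called either.

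Among channels opened by sodium, Kcnt1 and Kcnt2 were higher in dorsal cord and stepped down to ventral cord. Kcnt2 read 11.41, 11.32 and 11.30 on dorsal arrays, 10.39, 10.44 and 9.94 on intermediate arrays, and 9.07, 8.95 and 8.88 on ventral arrays. Between dorsal and ventral cord it differed by 2.38 ± 0.10, a fold of 5.19 (adjusted p = 9.72e-05, limma), and the dorsal minus intermediate call (1.09 ± 0.10) was lost without animal 1 (adjusted p = 0.0571). Kcnt1 read 9.05, 9.14 and 8.90 on dorsal arrays, 8.43, 8.45 and 8.40 on intermediate arrays, and 7.85, 7.33 and 7.61 on ventral arrays, with a dorsal minus ventral difference of 1.43 ± 0.13 (adjusted p = 0.000843). Its dorsal minus intermediate call (0.60 ± 0.13) was lost without animal 1 or 3, any of the dorsal or intermediate arrays or ventral array 3 (0.0617 to 0.187), and its intermediate minus ventral call (0.83 ± 0.13) without animal 3 (0.0836).

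Calcium-activated channels were less uniform. Kcnma1, the large-conductance BK pore, read 10.59, 10.33 and 10.53 on dorsal arrays, 10.32, 10.46 and 9.96 on intermediate arrays, and 9.91, 9.81 and 9.58 on ventral arrays. Its dorsal arrays lay above the ventral arrays by 0.72 ± 0.14 (adjusted p = 0.00939, limma) and its intermediate arrays by 0.48 ± 0.14 (adjusted p = 0.0382). Among 4 other Kcnma1 probe sets, 3 gave 0.52, 0.97 and 0.29 for dorsal minus ventral and 1 gave -0.52. For dorsal minus intermediate these 4 gave -0.22, 0.20, -0.47 and -0.64, against an uncalled 0.24 in the probe set used. The dorsal minus ventral call was lost without animal 1 or 3 (adjusted p = 0.101 and 0.0595), and the intermediate minus ventral call without animal 1, 2 or 3, dorsal array 1, intermediate arrays 1 or 2, or ventral arrays 1, 2 or 3 (0.0745 to 0.201).

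The BK beta subunits differed in size of change. Kcnmb2, which makes BK channels inactivate, averaged 5.60 ± 0.01 in dorsal, 6.04 ± 0.26 in intermediate and 4.88 ± 0.12 in ventral cord (SD, n = 3 each). It was 0.72 ± 0.09 higher in dorsal than in ventral cord (adjusted p = 0.00264, limma), -0.44 ± 0.09 for dorsal minus intermediate (adjusted p = 0.025) and 1.16 ± 0.09 for intermediate minus ventral (adjusted p = 0.000734). Its dorsal minus ventral call was lost without animal 2 (adjusted p = 0.0554), and its dorsal minus intermediate call without animal 1, 2 or 3, dorsal arrays 1 or 2, intermediate arrays 1 or 2, or ventral arrays 1, 2 or 3 (0.0571 to 0.186). Kcnmb4, the neuronal beta subunit, averaged 9.59 ± 0.01, 9.67 ± 0.08 and 9.43 ± 0.11 in dorsal, intermediate and ventral cord (SD, n = 3 each), and its 0.16 ± 0.05 for dorsal minus ventral (adjusted p = 0.0387) was lost without animal 1, 2 or 3, dorsal array 1, intermediate arrays 1, 2 or 3, or ventral arrays 1 or 3 (0.0668 to 0.188). For Kcnmb4, dorsal minus ventral, the adjusted p was 0.0567 without the animal in the model, 0.092 after centring the arrays on their medians and 0.091 after quantile normalisation. Its difference of 0.24 ± 0.05 for intermediate minus ventral was lost without animal 1 or 2 or intermediate array 1 (0.054 to 0.124).

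Kcnn2, a small-conductance SK channel that follows spikes with an afterhyperpolarisation, peaked in intermediate cord at 8.89, 9.06 and 8.95 on dorsal arrays, 9.55, 9.49 and 9.58 on intermediate arrays, and 9.22, 9.14 and 9.26 on ventral arrays. All intermediate arrays were above the rest, with -0.57 ± 0.06 for dorsal minus intermediate (adjusted p = 0.00269, limma) and 0.33 ± 0.06 for intermediate minus ventral (adjusted p = 0.0072). These calls were lost without animal 1 or 3 (adjusted p 0.0558 to 0.0848), as was the call of -0.24 ± 0.06 for dorsal minus ventral, also lost without dorsal arrays 1 or 3 or ventral arrays 1 or 3 (0.0645 to 0.172). Kcnn1 averaged 3.40, 3.62 and 3.13 in dorsal, intermediate and ventral cord and, like Kcnn4, was not called. Kcnu1, a channel of sperm, had the largest uncalled dorsal minus ventral difference, 0.67 ± 0.24 (adjusted p = 0.073).

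The non-coding member Kcnq1ot1, the antisense transcript of the Kcnq1 locus, read 11.75, 11.03 and 11.53 on dorsal arrays, 11.57, 11.60 and 11.17 on intermediate arrays, and 11.54, 11.29 and 11.26 on ventral arrays, and no comparison was called. A further 4 dimmer probe sets of Kcnq1ot1 gave dorsal minus ventral differences of 0.29 to 1.13, which were not tested. Kcnmb4os2 was at 2.58 on all 9 arrays.

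**Figure D3:**
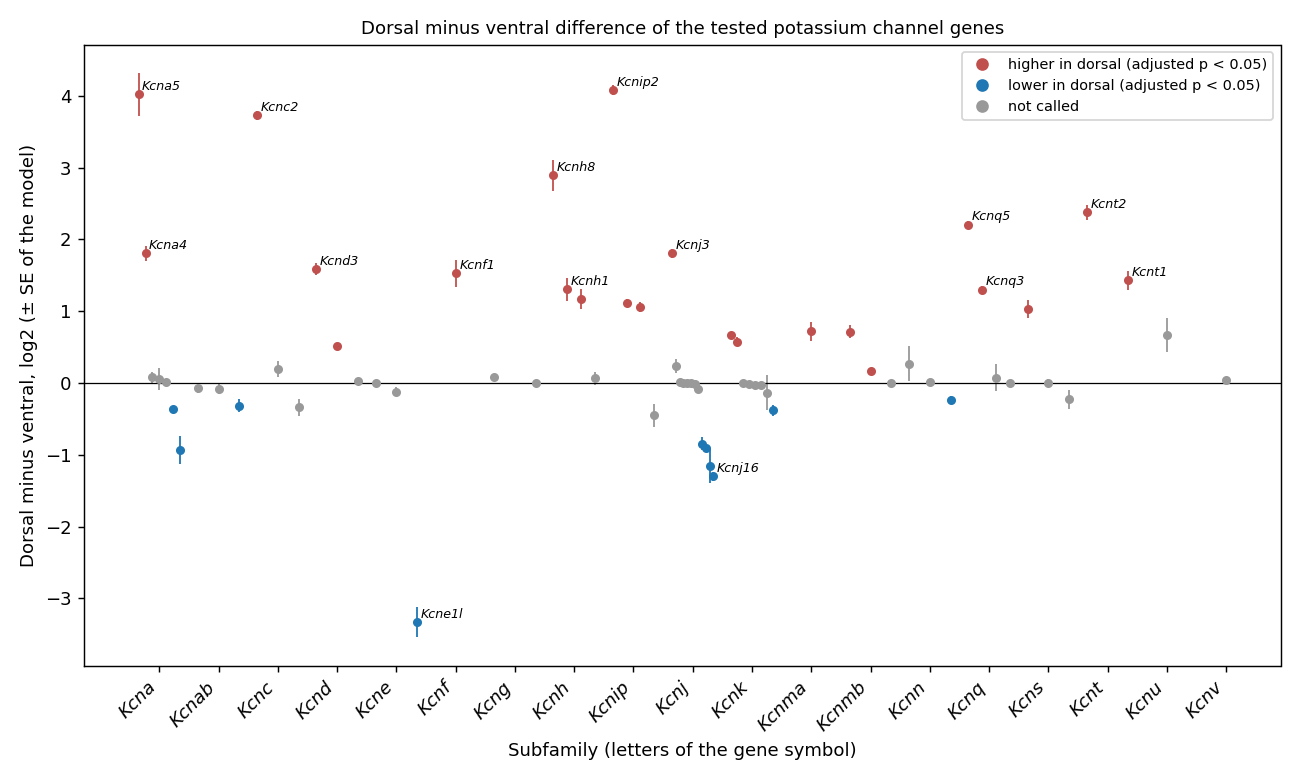
Dorsal minus ventral difference (log2, ± SE of the model) of the 68 tested members by subfamily, with called genes in red where higher and in blue where lower in dorsal cord, and uncalled genes in grey. Kcna holds calls in both directions, and Kcna5 stands at 4.02 and Kcna1 at -0.93.

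Many members had more than 1 probe set, which gave another reading under the same gene symbol. Whether such probe sets read the same transcript was not tested. A total of 46 genes had several, and 22 had another above the floor on all 9 arrays. Called differences were set beside each such probe set in 70 pairs, so a call with several other probe sets was counted more than once. Of the 70 pairs, 63 had the same sign, 3 were opposed (Kcna6, Kcnc1 and Kcnma1, given above) and 4 were near 0 in dim probe sets of Kcnh1 and Kcnq3. The same sign was counted at small sizes too, as for Kcnd3 in intermediate minus ventral, at 0.03 against 0.92. With the mean of all probe sets of a gene, calls were lost for Kcnc1 in dorsal minus intermediate, Kcna6 in intermediate minus ventral, and Kcnk1 in dorsal minus ventral and intermediate minus ventral. With the most variable probe set, those of Kcnip4 and Kcnq5 in dorsal minus intermediate were lost, and that of Kcnc1, dorsal minus intermediate, turned to a call in the opposite direction (0.78, adjusted p = 0.00406, limma). The readings share the arrays and are not replicates.

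**Figure D4:**
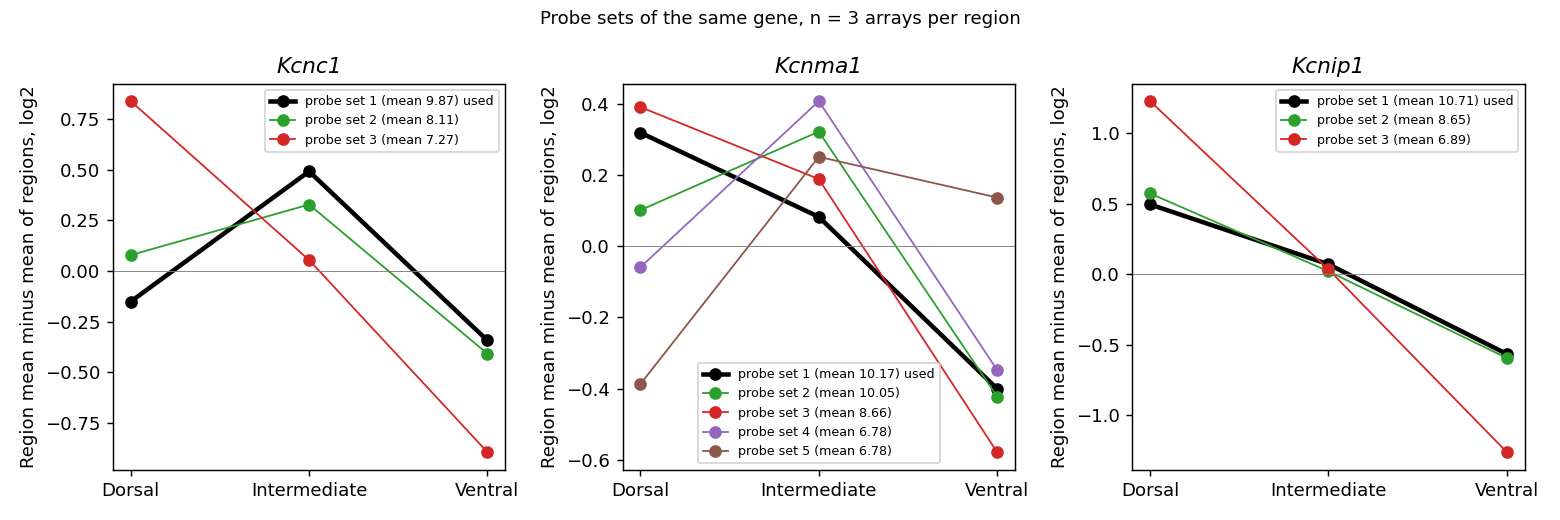
Region means of each probe set above the floor, minus the mean of its 3 regions (log2), for Kcnc1, Kcnma1 and Kcnip1, with the probe set used in black. The Kcnip1 probe sets all step down from dorsal to ventral cord, while those of Kcnc1 and Kcnma1 place different regions highest.

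Proteins outside the Kcn names that bind or resemble these channels were followed in a list of 24 genes, of which 19 were tested. In dorsal minus ventral 9 were higher and 4 lower, against 24.5% and 28.2% of all genes. In dorsal minus intermediate 4 were higher and 5 lower (14.2% and 15.9% of all genes), and in intermediate minus ventral 13 were higher and 3 lower (23.4% and 24.9% of all genes). The Kv4 partners Dpp6 and Dpp10, which carry the A-type channels to the surface, were higher in dorsal than in ventral cord by 0.79 ± 0.07 and 1.10 ± 0.05 (adjusted p = 0.000586 and 0.00011, limma). Among the Kv1 clustering partners, the scaffold Dlg2 was higher by 2.01 ± 0.05 and the secreted ligand Lgi1 by 1.61 ± 0.06 in dorsal minus ventral, while Lgi3 fell by 2.31 ± 0.13. Abcc9, the sulfonylurea receptor that pairs with Kcnj8, was lower in dorsal than in ventral cord, at a difference of -0.46 ± 0.02 (adjusted p = 0.000118). The pacemaker channel gene Hcn3 was higher by 1.11 ± 0.24 (adjusted p = 0.0157) and Hcn2 lower, at -0.38 ± 0.07 (adjusted p = 0.00727), in the same comparison.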

How the data were processed

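Expression was measured on Affymetrix 3' arrays from 500 ng of total RNA per piece, per the labels' protocols. The deposited table holds the authors' log2 values, a scale inferred from their range; the steps by which the authors summarised and normalised them are not given in the sources used here. Gene symbols of probe sets came from the platform annotation (45037 in all, 34945 with 1 symbol, 932 with several, 9160 with none); all 84 members matched RefSeq by Entrez number. 0 columns of the table were left unused.

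A model with region and animal as fixed terms was fitted to all 9 arrays with limma 3.58.1 in R 4.3.3 (4 residual and 0.749 prior degrees of freedom). Genes with a mean of at least 2.14606 were kept, and two-sided p-values received the Benjamini-Hochberg adjustment over 13959 genes. Values after ± are standard errors unless marked SD. The number of arrays limits the precision. Figures used matplotlib 3.10.9.

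The titles name the animal of each array, so regions are paired. Deviations from region means correlated across genes at -0.066 to 0.246 for arrays of the same animal (mean 0.081, 9 pairs) and at -0.18 to 0.161 for different animals (mean -0.041, 18 pairs).

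Members and gene lists were chosen with earlier results of these data known. Members named with values were the 5 with the largest called differences in each direction of each comparison, up to 5 each of those highest or lowest in intermediate cord, the brightest of each subfamily, and a list chosen by known role in spinal neurons or glia. Alternatives changed the block, the filter on dim genes, the scaling, the probe set of a gene, the moderation and the arrays included.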

Additional observations from a re-analysis of the deposited data

How the results depend on the processing

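Without the animal in the model ("no replicate block") 33, 26 and 34 members were called in dorsal minus ventral, dorsal minus intermediate and intermediate minus ventral, against 33, 24 and 33 with it. The call of Kcnmb4, dorsal minus ventral, had an adjusted p of 0.0567 without the block, and the other 32 calls of that comparison, all 24 of dorsal minus intermediate and all 33 of intermediate minus ventral held.

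In dorsal minus intermediate, 14 members were called from the arrays of those regions alone, and 10 to 23 when an animal or an array was left out. The count of members highest in intermediate cord, 7, ran from 0 to 7 when an animal or array was left out. It takes any member with the pattern in a setting, and in none of these settings did all 7 genes of the model reported keep both calls. Of the listed partners, 17 were called in some comparison, 11 when restricted to genes with 9 distinct values and 13 to 18 when an animal or array was left out; the restriction leaves fewer genes to test. Without 1 animal or array, dorsal minus ventral calls numbered 25 to 33, intermediate minus ventral calls 22 to 32 and F test calls 26 to 35.

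Some single values turned sign. The difference of Kcnc1, dorsal minus intermediate, was 0.78 with its most variable probe set, against -0.64. With the mean of all probe sets of a gene, that of Kcna6, dorsal minus ventral, was -0.19 against 0.08, and that of Kcnma1, dorsal minus intermediate, was -0.18 against 0.24. For Kcnj9, dorsal minus intermediate, quantile normalisation gave -0.051. For the last 3 no difference was called in the model reported, while the alternative called each in the opposite direction (adjusted p under 0.05, limma). The cause was not tested. Centring the arrays on their medians moved the median of all genes by less than 0.1 in each comparison and gave 12 members higher and 16 lower in dorsal minus intermediate, against 12 and 12. A value at the floor is only a bound.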
